A study of Xenopus laevis with 4 samples.

Results

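The miR-130 and miR-301 family was described in small RNA sequencing of explanted embryonic epidermis from Xenopus laevis, a frog used widely in developmental biology. Its members were the rows xtr-miR-130a, xtr-miR-130b, xtr-miR-130c and xtr-miR-301, chosen by name with their stage values known, which are 4 of the 98 miRNAs that the deposited table lists under Xenopus tropicalis names. Ciliated epidermis was taken at tailbud stage 26 and non ciliated epidermis at gastrula stage 11.5, both from embryos fertilized in vitro and grown in culture medium, with no further treatment stated. Each stage had 2 libraries, a and b, described as technical replicates of 1 pool of 50 explants. On that description the spread between them is technical, and it says nothing of other pools of embryos. Libraries were grouped by their developmental stage label, because the source names of both libraries b state a later stage than it does. Whether the spread between a and b also holds a difference in stage was not tested. Pairs of values below are in the order library a, library b. Ciliation and age differ together between the stages and cannot be told apart, and in whole explants fewer cells of a type and less RNA per cell cannot be told apart either.

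A miRNA recognises mRNAs mainly through its seed, bases 2 to 8 from the 5′ end, so miRNAs with the same seed can act on overlapping sets of mRNAs. The miR-130 and miR-301 family is conserved across vertebrates. In mouse fat cell precursors miR-130 is known to repress Pparg, the nuclear receptor that drives adipogenesis, and in human endothelial cells miR-130a is known for promoting vessel growth. miR-427, which fills most of the early frog libraries, belongs to another seed family and is known for clearing maternal mRNA at the onset of zygotic transcription.

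The mature sequences of the 4 members are shown because their likeness decides how far the rows can be told apart. They are given 5′ to 3′ in DNA letters as deposited, with the seed in capitals.
xtr-miR-130a: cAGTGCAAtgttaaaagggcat
xtr-miR-130b: cAGTGCAAtgatgaaagggcat
xtr-miR-130c: cAGTGCAAtattaaaagggcat
xtr-miR-301: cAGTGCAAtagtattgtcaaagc
The seed AGTGCAA stood at bases 2 to 8 of these 4 rows and of no other row of the 98. Counting positions from 1 at the 5′ end, xtr-miR-130c differed from xtr-miR-130a by a single substitution, G10A. xtr-miR-130b differed from xtr-miR-130a by T11A and A13G, and from xtr-miR-130c by 3 substitutions, G10A, A11T and G13A with xtr-miR-130b given first. xtr-miR-301, at 23 bases against 22 in the others, matched them in its first 9 bases and differed from xtr-miR-130c at 9 of the 22 bases compared. How many mismatches the authors allowed is not given in the sources used here. Reads may therefore be split between the 3 miR-130 rows, xtr-miR-130a and xtr-miR-130c above all, and how many are was not tested.

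The deposited values are CPM (a miRNA's reads scaled so that all listed miRNAs sum to 1000000). The smallest value above 0 in a column was taken as 1 read; all other values were whole multiples of it within a tolerance of 1e-06, and read numbers below were recovered in this way. The miRNA reads per library came to 46892 and 41878 for stage 26, and to 22668 and 30406 for stage 11.5. Of these, miR-427 took 3548 and 2912 reads at stage 26, and 19731 and 24832 at stage 11.5. That left 43344 and 38966 reads for all other miRNAs at stage 26, against 2937 and 5574 at stage 11.5, so the stage 11.5 values of the family rest on few reads. Intervals are exact (Clopper-Pearson) 95% intervals per library and, as no molecular identifiers are stated, cover counting error only. Rows of 4 epithelial markers, miR-200a, miR-200b, miR-429 and miR-203, were above 0 in all 4 libraries, while the skin marker miR-205a had 1 read in all. The epithelial list took 14.7% to 15.6% of reads at stage 26, and 1.70% to 1.73% at stage 11.5. With miR-427 left out of the totals it took 15.9% to 16.8% at stage 26, and 9.29% to 13.3% at stage 11.5.

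The family was a larger part of the miRNA reads at stage 26 than at stage 11.5 with each total used. It held 2454 and 2421 reads at stage 26, against 79 and 166 at stage 11.5. As a share of all miRNA reads this was 5.23% (interval 5.03% to 5.44%) and 5.78% (5.56% to 6.01%) at stage 26, and 0.349% (0.276% to 0.434%) and 0.546% (0.466% to 0.635%) at stage 11.5. The means were 5.51% ± 0.387 at stage 26 and 0.447% ± 0.1396 at stage 11.5 (SD, n = 2 each), a 12.3-fold higher share. With miR-427 left out of the totals, the family took 5.66% (5.45% to 5.88%) and 6.21% (5.98% to 6.46%) at stage 26, and 2.69% (2.14% to 3.34%) and 2.98% (2.55% to 3.46%) at stage 11.5. These means were 5.94% ± 0.3899 at stage 26 and 2.83% ± 0.204 at stage 11.5 (SD, n = 2 each), a 2.10-fold higher share. The stages did not overlap on either total, and the size of the difference depended on whether miR-427 was counted.

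**Figure D1:**
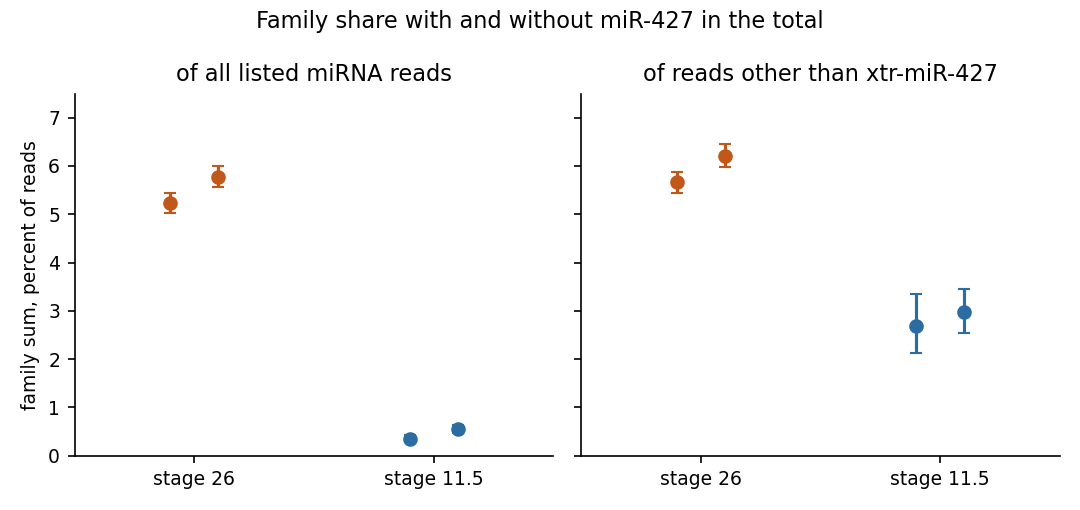
Summed reads of the 4 members as a percentage of all listed miRNA reads (left) and of reads other than xtr-miR-427 (right), 1 point per library with its exact 95% counting interval, stage 26 left of stage 11.5. The stage 26 points lie at 5.23% and 5.78% against 0.349% and 0.546% at stage 11.5 on the left, and at 5.66% and 6.21% against 2.69% and 2.98% on the right.

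The libraries of stage 11.5 were further from each other in share of all reads than those of stage 26. Library b stood 1.10 times as high as library a at stage 26 and 1.57 times at stage 11.5, and the counting intervals of libraries a and b did not overlap at either stage. With miR-427 left out of the totals these ratios were 1.10 at stage 26 and 1.11 at stage 11.5. The intervals then overlapped at stage 11.5 and still did not at stage 26, so the stage 26 libraries differed by more than counting error on both totals. miR-427 itself took 7.57% and 6.95% of reads at stage 26, and 87.0% and 81.7% at stage 11.5.

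xtr-miR-130c was the most abundant member in all 4 libraries. It had 29323 and 32260 CPM (1375 and 1351 reads) at stage 26, against 2206 and 4177 CPM (50 and 127 reads) at stage 11.5. The stages did not overlap, and library b of stage 11.5 was 1.89 times as high as library a. Its place among the 98 miRNAs by CPM was 8 in both stage 26 libraries, and 13 and 12 at stage 11.5. The mean CPM was 30792 ± 2077 at stage 26 and 3191 ± 1394 at stage 11.5 (SD, n = 2 each), 9.65-fold higher. As a share of reads other than miR-427 it took 3.17% and 3.47% at stage 26, and 1.70% and 2.28% at stage 11.5. On that total its mean was 1.67-fold higher at stage 26.

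xtr-miR-130b had the largest fold of the 3 members that were above 0 at both stages. A change of total moves all rows of a library alike, so this order could hardly depend on it. It had 19342 and 21658 CPM (907 reads in each library) at stage 26, against 529 and 691 CPM (12 and 21 reads) at stage 11.5. No stage 11.5 library came near a stage 26 library, and its place by CPM was 11 and 10 at stage 26, and 32 and 27 at stage 11.5. The mean CPM was 20500.2 ± 1638 at stage 26 and 610.02 ± 114 at stage 11.5 (SD, n = 2 each), 33.6-fold higher. As a share of reads other than miR-427 it took 2.09% and 2.33% at stage 26, and 0.409% and 0.377% at stage 11.5, 5.63-fold higher in the mean.

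xtr-miR-130a was higher or lower at stage 26 depending on the total. It had 2197 and 2101 CPM (103 and 88 reads) at stage 26, against 749.96 and 592 CPM (17 and 18 reads) at stage 11.5. In CPM both stage 26 libraries were above both stage 11.5 libraries, and the means were 2149 ± 67.3 at stage 26 and 671 ± 112 at stage 11.5 (SD, n = 2 each), 3.20-fold higher. As a share of reads other than miR-427 it took 0.238% and 0.226% at stage 26, and 0.579% and 0.323% at stage 11.5. On that total both stage 26 libraries were below both stage 11.5 libraries, with a fold of 0.514 in the mean. The counting interval of library b of stage 11.5 (0.191% to 0.5099%) overlapped those of both stage 26 libraries (0.194% to 0.288% and 0.181% to 0.278%). This order thus rests on few reads. Its place by CPM was 26 in both stage 26 libraries, and 24 and 29 at stage 11.5.

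xtr-miR-301 was seen at stage 26 alone. It had 1471 and 1791 CPM (69 and 75 reads) at stage 26, and no read in either stage 11.5 library. With 3 reads per library as the floor, a count of 0 was taken as at most 132 and 98.7 CPM at stage 11.5. The exact upper limits lie higher, at 0.0163% and 0.0121% of all reads. Against a floor of 3 reads over both stage 11.5 libraries (56.5 CPM), its mean of 1631 ± 226 CPM at stage 26 (SD, n = 2) was at least 28.9-fold higher in share. With miR-427 left out of the totals, where the same floor is 0.0352% of reads, it was at least 4.99-fold higher. These bounds leave out the counting error of the stage 26 mean. The higher floors of the libraries taken singly, or exact upper limits, would lower them. At stage 26 its place by CPM was 29 and 27 in libraries a and b.

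**Figure D2:**
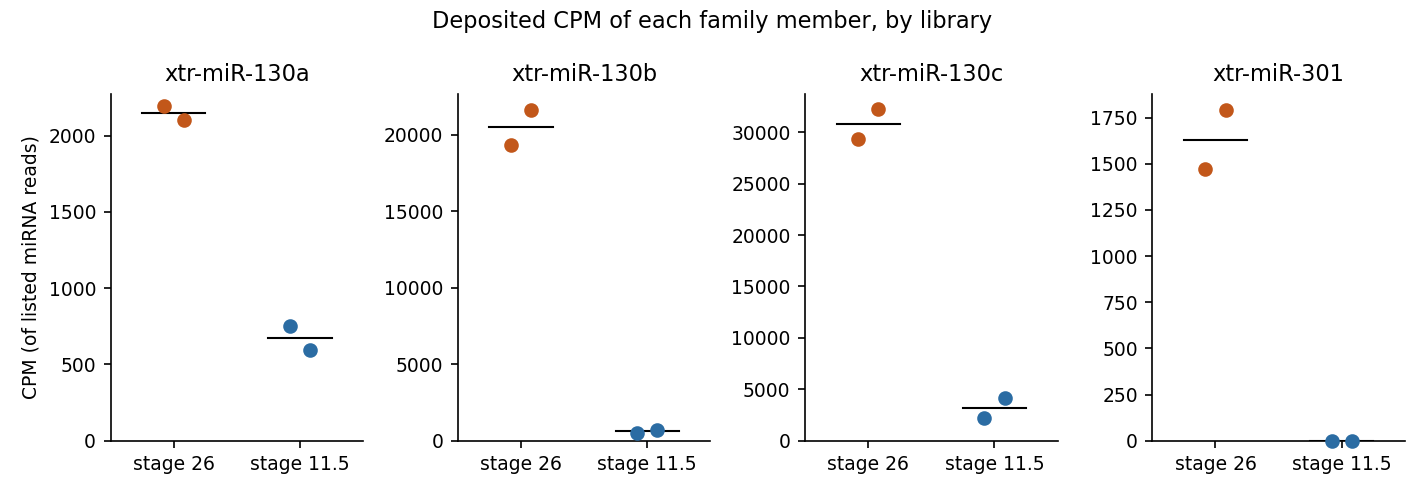
Deposited CPM of each member in each library (points, libraries a and b from left to right) with the mean of the stage (line), stage 26 left of stage 11.5; the vertical scale differs between panels and starts at 0. In each panel the stage 26 points lie above the stage 11.5 points, from 2197 and 2101 CPM against 749.96 and 592 CPM for xtr-miR-130a to 1471 and 1791 CPM against 0 for xtr-miR-301. Most miRNAs were higher at stage 26 on this scale, with a median fitted log2 fold change of 2.27 over the 52 tested.

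The order of the members by CPM was xtr-miR-130c, xtr-miR-130b, xtr-miR-130a and xtr-miR-301 at stage 26. Each neighbouring pair in it was further apart than the SDs of its means. The counting intervals of xtr-miR-130a and xtr-miR-301 as shares of all reads still overlapped in both stage 26 libraries. They were 0.179% to 0.266% against 0.115% to 0.186% in library a, and 0.169% to 0.259% against 0.141% to 0.224% in library b. At stage 11.5 xtr-miR-130c came first, xtr-miR-130a and xtr-miR-130b followed and did not differ beyond their spread, and xtr-miR-301 was at 0. Reads of different miRNAs of like length were compared here, and differences in how well each sequence enters a library were not tested.

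The makeup of the family differed between the stages, and this measure needs no scaling, since it compares reads within a library. xtr-miR-130c made up 56.0% and 55.8% of family reads at stage 26, and 63.3% (interval 51.7% to 73.9%) and 76.5% (69.3% to 82.7%) at stage 11.5. Its interval in library a of stage 11.5 reached down to the stage 26 values. xtr-miR-130b made up 36.96% (35.0% to 38.9%) and 37.5% (35.5% to 39.4%) at stage 26, and 15.2% (8.10% to 25.0%) and 12.7% (8.004% to 18.7%) at stage 11.5. Its intervals at stage 26 lay above those at stage 11.5, and the mean shares were 37.2% ± 0.356 at stage 26 and 13.9% ± 1.80 at stage 11.5 (SD, n = 2 each). xtr-miR-130a made up 4.20% (3.44% to 5.07%) and 3.63% (2.93% to 4.46%) at stage 26, and 21.5% (13.1% to 32.2%) and 10.8% (6.55% to 16.6%) at stage 11.5. Its intervals did not overlap between the stages, and the stage 11.5 libraries differed from each other by more than the stage 26 libraries did. xtr-miR-301 made up 2.81% (2.19% to 3.55%) and 3.10% (2.44% to 3.87%) at stage 26. At stage 11.5 it had 0 of 79 and 0 of 166 family reads, with exact upper limits of 4.56% and 2.198%. Over both stage 11.5 libraries, 0 of 245 reads give an upper limit of 1.49%. In library a of stage 11.5 alone, a share as at stage 26 was thus not excluded at this depth. The limit of library b lay below both stage 26 shares, but just reached the interval of library a of stage 26, which starts at 2.194%.

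**Figure D3:**
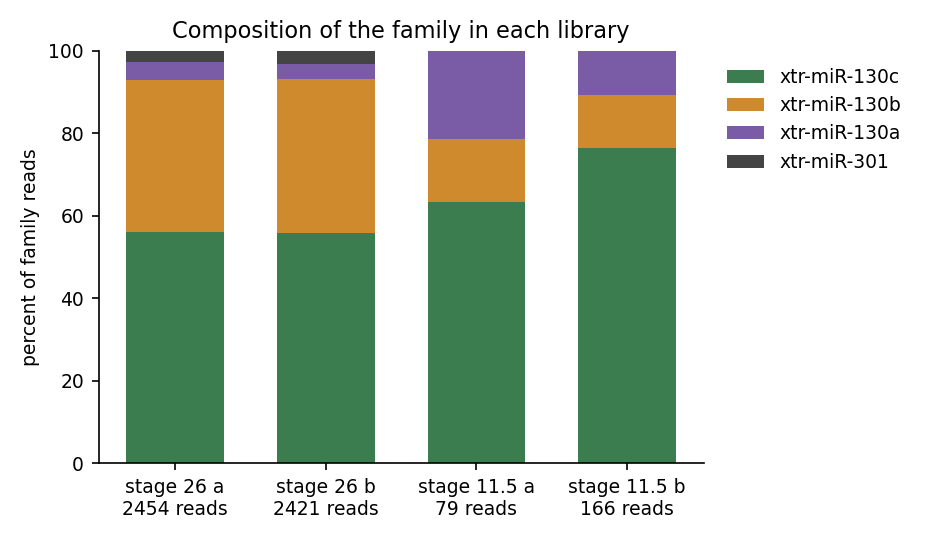
Share of the family's reads taken by each member (stacked bars, percent) in each library, with the family's read number below each bar and stage 26 left of stage 11.5. xtr-miR-130b takes 36.96% and 37.5% at stage 26 against 15.2% and 12.7% at stage 11.5, and xtr-miR-301 appears at stage 26 alone.

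The same shift stood in the ratios between members. There were 0.660 (interval 0.606 to 0.718) and 0.671 (0.617 to 0.731) reads of xtr-miR-130b per read of xtr-miR-130c at stage 26, and 0.240 (0.116 to 0.457) and 0.165 (0.0989 to 0.264) at stage 11.5. Per read of xtr-miR-130a there were 8.81 and 10.3 reads of xtr-miR-130b at stage 26, and 0.706 and 1.17 at stage 11.5. These ratios were higher at stage 26 in every pair of libraries. For xtr-miR-130a and xtr-miR-130c, which differ at 1 base, the ratio was 0.0749 (0.0607 to 0.0916) and 0.0651 (0.0519 to 0.0809) at stage 26, and 0.340 (0.184 to 0.5997) and 0.142 (0.0814 to 0.233) at stage 11.5. The intervals of library a of stage 26 and library b of stage 11.5 overlapped.

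A fit over the whole table gives the setting for these folds. All 4 members passed the filter on low values (at least 15 reads summed over libraries, and 276.7 CPM, or 10 reads at the median depth, in 2 or more of them), as did 52 miRNAs in all. The miR-130 rows passed it in all 4 libraries and xtr-miR-301 through stage 26 alone. The fit used limma on log2(CPM divided by a TMM scaling factor, plus 50 CPM), where TMM, the trimmed mean of M values, sets the scale from miRNAs with middling changes. TMM shifted stage 26 against stage 11.5 by -1.98 (log2). The fitted log2 fold changes of stage 26 over stage 11.5 were 3.05 (SE 0.360) for xtr-miR-130b, 1.35 (SE 0.409) for xtr-miR-130c, -0.28 (SE 0.318) for xtr-miR-130a and 1.67 (SE 0.328) for the family summed to 1 row. The pseudocount pulls the fitted folds of low miRNAs toward 0. xtr-miR-301 was at least 7.32-fold higher after TMM scaling, against the same floor and again without the counting error of its stage 26 mean. In TMM scaled CPM, xtr-miR-130a had 1095 and 1068 at stage 26, against 1564 and 1121 at stage 11.5, so the stages did not overlap but its libraries of stage 11.5 lay further apart than library a of stage 26 and library b of stage 11.5.

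xtr-miR-301 entered the fit through stage 26 alone and had no read at stage 11.5, so it had to differ and is left out of these counts. The shares of tested miRNAs beside them still hold it, and other rows at 0 at stage 11.5 such as miR-30e and let-7a. Counts and shares are thus over unlike sets. Of the 3 miR-130 rows 2 were called higher after TMM scaling (limma, Benjamini-Hochberg adjusted p under 0.05), xtr-miR-130b and xtr-miR-130c, where 59.6% of tested miRNAs were called in either direction and 38.5% were called higher. In deposited CPM all 3 were called higher, where 82.7% of tested miRNAs were called and 71.2% were called higher. With miR-427 left out of the totals 1 was called, xtr-miR-130b, where 53.8% of tested miRNAs were called and 26.9% were called higher. A call sets the stages against the spread between libraries described as replicates of 1 pool and does not cover other pools. The members were chosen with this contrast known, so the calls are a description and no p-value is read from them. Of all tested miRNAs, 20 were called higher and 11 lower after TMM scaling, against 37 and 6 in deposited CPM. Without library a or library b of stage 26, fewer rows were called after TMM scaling, in the whole table as among the miR-130 rows. The lone stage 26 library is then assumed to vary like stage 11.5. The fitted log2 fold changes were then 3.12 (without a) and 2.93 (without b) for xtr-miR-130b, and 1.42 and 1.26 for xtr-miR-130c.

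xtr-miR-301, which had to differ, is left out here too. Of the 3 miR-130 rows, xtr-miR-130c had the middle log2 fold change. It was 1.35 after TMM scaling, where the median of all tested miRNAs was 0.47. In deposited CPM it was 3.32, where that median was 2.27. With miR-427 left out of the totals it was 0.75, where that median was -0.12. On each of these 3 scales the fold of xtr-miR-130b lay above that of xtr-miR-130c, and xtr-miR-130c above xtr-miR-130a. Each scale divides all rows of a library by 1 factor. This order, and the place of xtr-miR-130c above the median, could thus hardly change between the scales. xtr-miR-130a changed sign between them, with 1.62 (SE 0.318) in deposited CPM, -0.28 (SE 0.318) after TMM scaling and -0.89 (SE 0.493) with miR-427 left out.

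**Figure D4:**
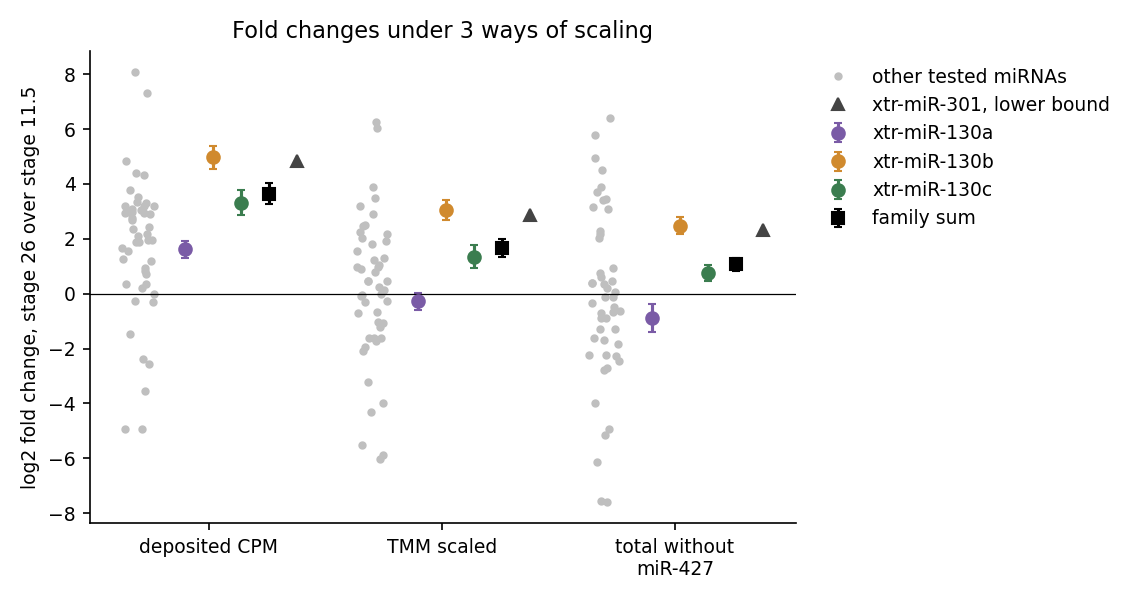
Fitted log2 fold change, stage 26 over stage 11.5, of 3 members and the family sum (error bars, SE) and of the other tested miRNAs (grey points, spread sideways to be seen), in deposited CPM, after TMM scaling and with miR-427 left out of the totals; the triangle is the lower bound of xtr-miR-301. The family sum lies at 3.64, 1.67 and 1.07, and xtr-miR-130a at 1.62, -0.28 and -0.89.

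Beyond the family, rows holding AGTGCA or GTGCAA (as deposited, read 5′ to 3′ on the miRNA strand) from base 1 to 4 onward were looked up, and there were 2, miR-19a and miR-19b of the miR-17 clusters. They are shown with that stretch, bases 2 to 7, in capitals, where it stands at bases 3 to 8 of the members.
xtr-miR-19a: tGTGCAAatctatgcaaaactga
xtr-miR-19b: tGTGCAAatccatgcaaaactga
miR-19b had 4393 and 3797 CPM at stage 26, against 1765 and 888 CPM at stage 11.5. Its log2 fold change was 1.66 (SE 0.4696) in deposited CPM and -0.27 (SE 0.496) after TMM scaling, where it was not called (limma adjusted p = 0.675, within 0.0172 to 0.940 over 15 alternatives). miR-19a had 363 and 382 CPM at stage 26, against 353 and 395 CPM at stage 11.5, and was called lower after TMM scaling (log2 -1.74, SE 0.206, limma adjusted p = 0.00172). That call was lost without library a of stage 26 (limma adjusted p = 0.0532) and in deposited CPM (log2 -0.0037, limma adjusted p = 0.987), within 9.66e-05 to 0.987 over 15 alternatives. Neither row lay as high at stage 26 as xtr-miR-130b or xtr-miR-130c. miR-19b lay above xtr-miR-130a and xtr-miR-301 at both stages, and above xtr-miR-130b at stage 11.5. miR-19a lay below every member at stage 26.

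The profile of the family sum over the 4 libraries was compared with the other tested miRNAs on the TMM scaled log2 scale, each centred on its own mean. The 4 with the smallest root mean square difference were miR-429 (0.0722), miR-449 (0.254), miR-30e (0.329) and let-7a (0.359). With 4 libraries of 2 stages such a profile mostly measures the stage contrast, and miR-30e and let-7a were at 0 at stage 11.5, where the pseudocount sets their values. miR-429, an epithelial miRNA of the miR-200 family, had 61482 and 64210 CPM at stage 26, against 4279 and 6939 CPM at stage 11.5. The family had 0.851 and 0.9003 reads per miR-429 read at stage 26, and 0.814 and 0.787 at stage 11.5, and the counting intervals at stage 11.5 (0.597 to 1.11 and 0.638 to 0.969) held both stage 26 values. These rows were picked for their likeness to the family over the same libraries. A ratio that changes little thus follows from the choice and is no separate evidence. Against miR-449, known from multiciliated epithelia and the most abundant miRNA at stage 26, the family had 0.136 and 0.147 reads per read at stage 26, and 0.0925 and 0.116 at stage 11.5. The stage 26 ratios were higher in every pair of libraries, and the counting intervals of library a of stage 26 (0.130 to 0.142) and library b of stage 11.5 (0.0980 to 0.136) overlapped.

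Marker miRNAs of other tissues that an explant could hold were measured beside the family. The neural list, of which miR-218 and miR-7 are listed, took 1.13% to 1.28% of reads at stage 26, and 0.0296% to 0.0529% at stage 11.5. The muscle list, miR-1b and miR-206, took 0.143% to 0.160% at stage 26, and 0.0691% to 0.0750% at stage 11.5, where miR-206 was at 0. The endoderm list of 3 rows took 0.279% to 0.303% at stage 26, and 0.0329% to 0.110% at stage 11.5. The blood and vessel list of 4 rows took 0.0277% to 0.0382% at stage 26, and 0.101% to 0.128% at stage 11.5, with the red cell miRNA miR-451 at 1 to 3 reads in each library. The neural, muscle and endoderm lists were higher at stage 26 in these shares, as the family was. With miR-427 left out of the totals the neural list took 1.22% to 1.37% at stage 26, and 0.161% to 0.409% at stage 11.5. The higher share was that of miR-218 alone, which had 471 and 486 reads at stage 26, against 1 and 0 at stage 11.5, while miR-7 had 58 and 49 reads at stage 26, against 11 and 9 at stage 11.5, a log2 fold change of -0.90 (SE 0.590) on that total, which was not called. On that total the muscle list was lower at stage 26 (0.155% to 0.172%) than at stage 11.5 (0.377% to 0.579%). The endoderm list at stage 26 (0.3003% to 0.328%) then lay within its range at stage 11.5 (0.179% to 0.851%). Its tested rows went opposite ways, miR-215 with a log2 fold change of 4.95 (SE 0.260) and miR-375 with -1.27 (SE 0.881), which was not called. Only 1 of its 3 rows was above 0 in each stage 11.5 library, and it was not miR-215. The fold and SE of miR-215 thus depend on the pseudocount, and it passed the filter through stage 26 alone. The blood and vessel list took 0.0300% to 0.0411% at stage 26, and 0.6997% to 0.783% at stage 11.5, on that total. For all of these lists the part played in the family's values was not tested.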

How the data were processed

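Small RNA was sequenced from epidermal explants at stage 26 and stage 11.5 of Xenopus laevis, with 2 libraries per stage made with the SREK kit (Ambion), per the labels' protocols. The values deposited by the authors are CPM: each column sums to 1000000 over 98 listed miRNAs. The aligner and its mismatch setting were not given in the sources used here. Genomic positions were not used. Reads were recovered by dividing each column by its smallest value above 0, and 100% of values came out whole within a tolerance of 1e-06. The members and lists were chosen with earlier results of these data known. The fit, with limma 3.58.1 in R 4.3.3, let the variance follow the mean and took log2 of CPM over its TMM factor plus 50 CPM as pseudocount. P-values were adjusted by Benjamini and Hochberg over 52 tested miRNAs, with a threshold of 0.05. TMM factors (trimming 30% of M and 5% of A values per end) came from the recovered reads of tested rows. For the family sum the 4 rows were added before the fit, with the same factors. The fit was tested on simulated data in which as many miRNAs rose as fell, by equal amounts. Scaling under a change as large as that of miR-427 was not tested there. The planned count test was not run, since the deposited values are normalized and the recovered reads have no independent check. Voom weights of limma on recovered reads were added as an alternative, chosen after seeing the data. Named miRNAs were the members, miR-427, rows of related sequence and the 4 most alike profiles, beside marker rows of epidermis and other tissues. No label says that a letter pairs libraries of different stages.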

Additional observations from a re-analysis of the deposited data

How the results depend on the processing

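The family sum was higher at stage 26 in all 15 alternatives. Its log2 fold change of 1.67 after TMM scaling became 3.64 in deposited CPM and 1.07 with miR-427 left out of the totals, and lay between 1.46 and 1.96 with 1 library left out. Its share without miR-427 in the totals was 5.94% at stage 26 and 2.83% at stage 11.5. xtr-miR-130b and xtr-miR-130c were higher in all 15 alternatives, within 2.48 to 4.97 and 0.75 to 3.32 on the log2 scale. xtr-miR-130a was lower in 14 and higher in 1, deposited CPM, but some of the lower values were near 0. With relative log expression factors, another scaling, it stood at -0.052 (SE 0.328). The alternatives reuse the same libraries and most keep TMM scaling. Fits with a replicate block return the main fold by construction, so these tallies of signs do not measure stability. For miR-19b the log2 fold change of -0.27 became 1.66 in deposited CPM, and lay between -0.80 and 0.32 with 1 library left out. The members called, with xtr-miR-301 counted, numbered 1 to 3 with 1 library left out. The lowest followed the omission of either stage 26 library and was xtr-miR-301, which has no read at stage 11.5 and so says nothing of stability, and in these fits the lone library of a stage is assumed to vary like the other stage. The calls over the whole table, 31, numbered 48 with no filter, which tests 98 rows, and 11 to 40 with 1 library left out. The main fit tested 52 miRNAs. Without library a or b of stage 26, 53 and 52 were tested, and without library a or b of stage 11.5, 62 and 61. Calls with 1 library left out are thus over unlike sets, and their numbers cannot be compared directly with the main fit. With the replicate letter as a block (replicate block) 29 of 52 tested miRNAs were called. The 3 members among them were xtr-miR-130b, xtr-miR-130c and xtr-miR-301, which had to differ. Same letters did not deviate together (r = -0.26 over 52 miRNAs), and a crossed pairing, added after seeing the data, gave 36 calls. Voom weights gave 33 calls of 52, with xtr-miR-130b and xtr-miR-130c among them as under the block. Depth limits xtr-miR-301, xtr-miR-130a and xtr-miR-130b at stage 11.5 most, with 0, 35 and 33 reads over both libraries.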

Other observations

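The first 13 bases of xtr-miR-130a are close to bases 4 to 16 of miR-449, the most abundant miRNA at stage 26. This likeness was noticed after the values were seen and describes the letters alone. Both are shown 5′ to 3′ with the aligned stretch in capitals.
xtr-miR-130a: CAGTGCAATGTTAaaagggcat
xtr-miR-449: aggCAGTGTAATGTTAgctggt
Over these 13 bases the rows differ by 1 substitution, C6T, with xtr-miR-130a given first and positions counted from its 5′ end. The same window of xtr-miR-130c differs from miR-449 by 2 bases, and those of xtr-miR-130b and xtr-miR-301 by 3 each. No other row outside the family came within 3 differences of any member over these 13 bases. In miR-449 the stretch starts 3 bases further in, so the seeds, bases 2 to 8, are not the same.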
